A study of Mus musculus with 6 samples.

Results

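Mesenchymal stromal surface and identity markers were examined in RNA-seq libraries of MSR1 KO and MSR1 WT macrophages that had been kept with bone marrow mesenchymal stromal cells (BMSCs). The 10 markers are Thy1, Eng, Nt5e, Ly6a, Cd44, Alcam, Mcam, Prrx1, Twist1 and Cdh11, out of 52550 genes in the count table. They were selected on the same raw counts of these 6 libraries, for the reason that Thy1 was higher in MSR1 KO while most stromal genes were lower. Their differences between genotypes are therefore given as a description, with no p-value for a member. How many of them the fit across the whole table called is counted beside the share of all genes it called, and is no independent evidence. Genes outside the 10 are given with that fit's adjusted p.

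The libraries came from bone marrow-derived macrophages of C57BL/6 mice, 3 of genotype MSR1 KO, from mice with a whole-body knockout of the class A scavenger receptor MSR1, and 3 of genotype MSR1 WT. Bone marrow cells of both genotypes were grown for 7 days with macrophage colony-stimulating factor at 25 ng/ml. They were then kept for 48 h with BMSCs across a transwell membrane, so the controls shared the culture steps. Whether both genotypes received the same preparation of BMSCs is not given in the sources used here. The genotype of the BMSCs is not given in the labels. The paper describes the 3 libraries of each genotype as biological replicates, without saying whether each came from a separate mouse. The p-values therefore measure the spread between these libraries, which may not include the spread between mice. The study's methods name no sorting of cells before RNA extraction, and a bulk library cannot tell fewer cells of a type from less RNA per cell.

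BMSCs are the fibroblast-like cells of the marrow that can form bone, fat and cartilage. They are usually identified by surface proteins, of which CD90 (Thy1), CD73 (Nt5e) and CD105 (Eng) are required to be present and CD45 (Ptprc) and CD34 to be absent. These surface proteins are shared with other cells: Thy1 is also carried by T cells and innate lymphoid cells, Ly6a (Sca-1) is induced by interferons in leukocytes, Cd44 is carried by macrophages, and Eng and Mcam by endothelium. Prrx1 and Twist1 are transcription factors of the mesenchymal lineage, and Cdh11 is the cadherin that joins mesenchymal cells.

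The bases directly upstream of the annotated gene are shown for Prrx1 and Twist1, which were lower in MSR1 KO, and for Eng and Cd44, which had higher means. They are from the RefSeq promoter table of build GRCm38.p6, which held 7 of the 10 members. For the other members it held, Nt5e, Alcam and Mcam, 0, 0 and 61 of the bases lay upstream of the annotated gene, so they are not shown. They are written 5′ to 3′ on the gene's strand, with matches of CANNTG (the E-box, the letters bound by basic helix-loop-helix factors such as Twist1) and TAATTA (a homeodomain-type core) in capitals. The stretches lie at chr1:163313711-163313900 on the minus strand for Prrx1, chr12:33957421-33957670 on the plus strand for Twist1, chr2:32646345-32646594 on the plus strand for Eng and chr2:102901666-102901915 on the minus strand for Cd44.
Prrx1: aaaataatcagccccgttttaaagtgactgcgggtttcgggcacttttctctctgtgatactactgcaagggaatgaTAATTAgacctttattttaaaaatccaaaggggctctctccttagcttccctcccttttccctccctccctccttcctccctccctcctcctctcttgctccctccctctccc
Twist1: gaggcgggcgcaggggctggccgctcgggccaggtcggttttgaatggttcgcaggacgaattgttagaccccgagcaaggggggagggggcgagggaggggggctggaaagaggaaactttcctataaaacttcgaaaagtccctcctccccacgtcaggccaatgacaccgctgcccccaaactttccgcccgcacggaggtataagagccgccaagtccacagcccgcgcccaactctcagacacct
Eng: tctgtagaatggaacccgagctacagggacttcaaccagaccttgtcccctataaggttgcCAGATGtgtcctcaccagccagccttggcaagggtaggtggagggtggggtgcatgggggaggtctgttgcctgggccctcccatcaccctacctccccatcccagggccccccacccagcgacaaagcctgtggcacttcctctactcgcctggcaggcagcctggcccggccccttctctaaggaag
Cd44: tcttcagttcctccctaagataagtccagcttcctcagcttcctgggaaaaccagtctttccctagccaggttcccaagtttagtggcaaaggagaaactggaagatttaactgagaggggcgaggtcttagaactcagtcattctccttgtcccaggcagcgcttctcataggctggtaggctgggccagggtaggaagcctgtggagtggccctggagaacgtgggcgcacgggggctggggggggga
Both motifs read the same on either strand, and no matches overlapped. The 190 bases upstream of Prrx1 held 1 TAATTA and no E-box, and the 250 bases upstream of Eng held 1 E-box and no TAATTA. The 250 bases upstream of Twist1 and of Cd44 held neither. Over the 32851 promoters of the table, 66.2% of 250-base stretches held an E-box and 4.8% held TAATTA, and in 190-base stretches the shares were 57.3% and 4.0%. Twist1 and Eng had the same GC content in these stretches, 62.4%, against 56.4% for Cd44 and 48.9% for Prrx1. These are descriptions of the letters only.

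The libraries held 36143518 to 47417448 counts each, and scaling by TMM changed their sizes by little (factors 0.981 to 1.018). Levels are CPM after that scaling, and a difference is the log2 fold change of MSR1 KO over MSR1 WT with its standard error (SE). The targeted gene was lower where the labels say so: Msr1 was at 49.3 ± 8.50 CPM in MSR1 KO and 199.6 ± 20.9 CPM in MSR1 WT (SD, n = 3 each), and it fell by 2.02 on the log2 scale (edgeR, adjusted p = 0.0012). Macrophage markers dominated the libraries, with Lyz2 at 13390 ± 654 and 14900 ± 1440 CPM, and 15 of 15 listed macrophage markers were tested, of which 1 rose and 1 fell.

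All 10 members passed the filter on low counts. Their differences ran from a log2 fold change of -0.75 (Cdh11) to 1.63 (Ly6a), with 6 above 0 and 4 below, against a median of -0.002 over the 16402 genes tested. At an adjusted p under 0.05, 1 member was called higher (Ly6a) and 3 were called lower (Alcam, Prrx1 and Cdh11), where 2.25% of all tested genes were called higher and 2.66% lower. For Thy1, Eng and Ly6a the lowest KO value was above the highest WT value, as it was for 12.1% of tested genes. For Alcam, Prrx1, Twist1 and Cdh11 the highest KO value was under the lowest WT value, as it was for 13.4% of tested genes. Because the same counts chose the members, nothing is read from these counts. Leaving out MSR1 KO replicate 1 left 0 members called in either direction, and so did leaving out MSR1 WT replicate 1. Calls over all genes also fell, from 369 higher and 436 lower to 42 and 83, and to 18 and 53. In these fits the log2 fold changes stayed near those of the main fit. Ly6a was at 1.7 and 1.54, Alcam at -0.686 and -0.691, Prrx1 at -0.605 and -0.591, and Cdh11 at -0.682 and -0.698. Leaving out MSR1 KO replicate 3 or MSR1 WT replicate 2 left 1 member called lower with Ly6a still called higher. Over all genes these fits called 183 higher and 151 lower, and 62 higher and 141 lower. Leaving out MSR1 WT replicate 3 gave 2 members higher (Thy1 and Ly6a) and 2 lower, beside 407 genes higher and 372 lower. DESeq2 called 3 members higher (Thy1, Eng and Ly6a) and 3 lower, beside 720 higher and 848 lower of the 16402 genes tested.

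**Figure D1:**
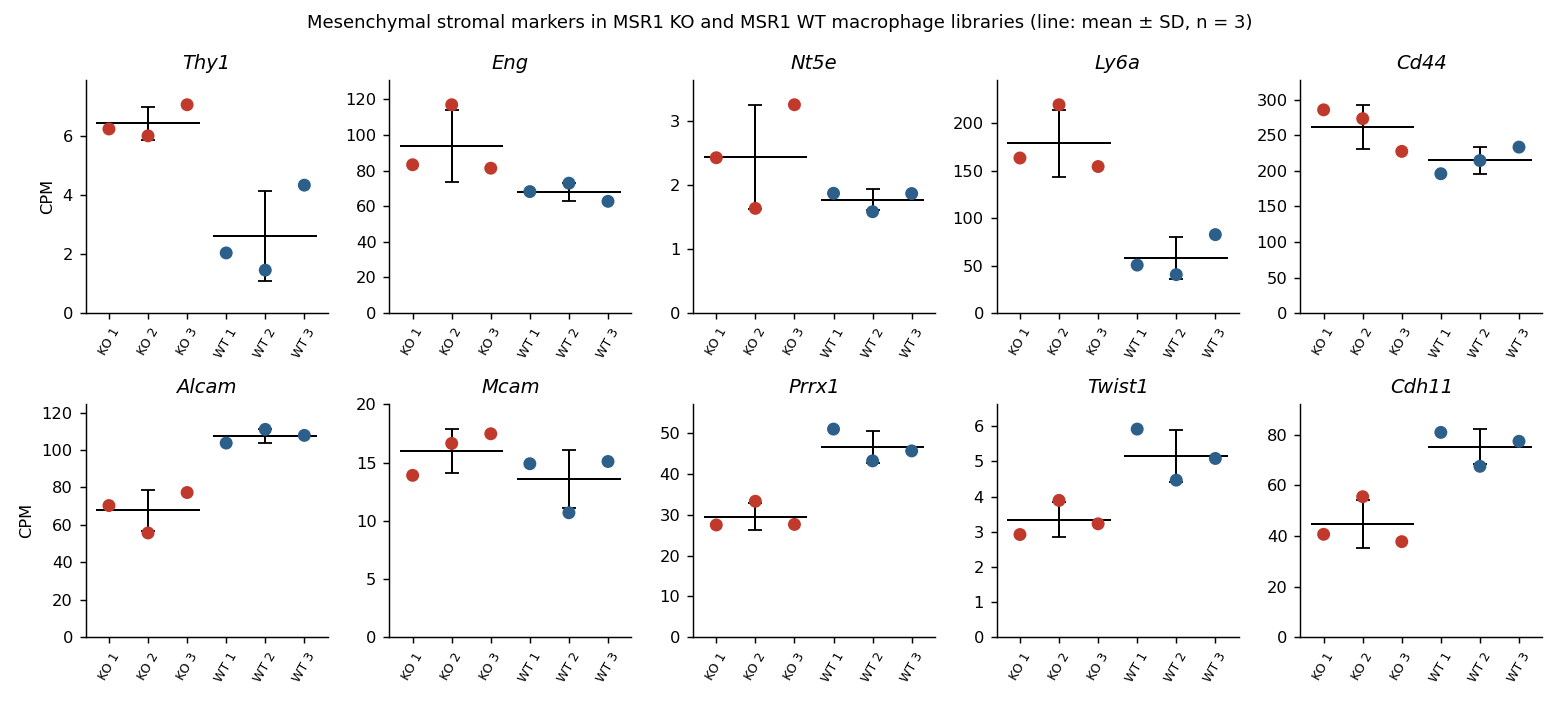
CPM (vertical axes, linear from 0) of each member in the 3 MSR1 KO (red) and 3 MSR1 WT (blue) libraries, with the mean as a line and the SD as a bar. Thy1, Eng and Ly6a are higher in each MSR1 KO library than in any MSR1 WT library, Alcam, Prrx1, Twist1 and Cdh11 are lower, and Nt5e, Cd44 and Mcam overlap.

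The 3 surface proteins that define BMSCs had higher means in MSR1 KO, unlike the identity members. Thy1 (chromosome 9, 44043384 to 44048579, plus strand, GRCm38), a small GPI-anchored glycoprotein, was at 6.23, 6.00 and 7.05 CPM in MSR1 KO replicates 1 to 3 and at 2.04, 1.45 and 4.33 CPM in MSR1 WT replicates 1 to 3. These are 224, 239 and 328 counts against 84, 69 and 179. The MSR1 KO libraries lay close to each other, with a coefficient of variation of 8.60%, while the MSR1 WT libraries spread by 58.4% and replicate 3 stood nearest to MSR1 KO. The means were 6.43 ± 0.553 and 2.61 ± 1.52 CPM (SD, n = 3 each). The log2 fold change was 1.31 (SE 0.37), or 2.47-fold. Without MSR1 WT replicate 3 the log2 fold change was 1.88.

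Eng (chromosome 2, 32646595 to 32682669, plus strand), the endoglin co-receptor for TGF-β and BMP ligands, was at 83.2, 116.9 and 81.3 CPM in MSR1 KO and at 68.2, 72.9 and 62.7 CPM in MSR1 WT. Replicate 2 was the highest of both genotypes, and the groups did not overlap. The log2 fold change was 0.47 (SE 0.14). On its exons, 61 bases (1.51%) are shared with Fpgs on the other strand, and whether the counting used strand is not given in the sources used here.

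Nt5e (chromosome 9, 88327197 to 88372092, plus strand), the ectonucleotidase that makes adenosine from AMP, was at 2.42, 1.63 and 3.25 CPM in MSR1 KO and at 1.87, 1.58 and 1.86 CPM in MSR1 WT. The groups overlapped, since MSR1 KO replicate 2 lay below MSR1 WT replicates 1 and 3. The log2 fold change was 0.46 (SE 0.30). Of the proteins whose absence defines BMSCs, Ptprc, a phosphatase of leukocytes, was at 873.9 ± 60.3 CPM in MSR1 KO and 684.9 ± 9.72 CPM in MSR1 WT. It rose (log2 fold change 0.35, SE 0.07, edgeR adjusted p = 0.030). Cd34, a sialomucin of blood progenitors and endothelium, was at 2.45 ± 0.638 and 2.23 ± 0.361 CPM, a log2 fold change of 0.13 (SE 0.27) that did not pass the test (adjusted p = 0.86).

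Among the other surface members, Ly6a (chromosome 15, 74994877 to 74998031, minus strand) had the largest log2 fold change of the 10. It was at 163.4, 219.5 and 154.4 CPM in MSR1 KO and at 50.6, 40.5 and 82.7 CPM in MSR1 WT. MSR1 KO replicate 2 was the highest library, and MSR1 WT replicate 3 was again the MSR1 WT library nearest to MSR1 KO. The means were 179.1 ± 35.3 and 57.9 ± 22.0 CPM, a log2 fold change of 1.63 (SE 0.26), or 3.09-fold.

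Cd44 (chromosome 2, 102811141 to 102901665, minus strand), the receptor for hyaluronan, was at 285.7, 273.3 and 227.3 CPM in MSR1 KO and at 195.9, 214.4 and 233.3 CPM in MSR1 WT. The groups overlapped in MSR1 KO replicate 3 and MSR1 WT replicate 3, and the log2 fold change was 0.29 (SE 0.10). Mcam (chromosome 9, 44134469 to 44142727, plus strand), the adhesion protein CD146 of pericytes and endothelium, was at 13.9, 16.7 and 17.5 CPM against 14.9, 10.7 and 15.1 CPM. It also overlapped, with a log2 fold change of 0.24 (SE 0.16).

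Alcam (chromosome 16, 52248996 to 52454074, minus strand), the adhesion protein CD166, was the surface member with lower levels in MSR1 KO. It was at 70.4, 55.7 and 77.3 CPM in MSR1 KO and at 103.7, 111.0 and 107.8 CPM in MSR1 WT. The MSR1 WT libraries were tight, with a coefficient of variation of 3.42%, against 16.2% in MSR1 KO. The means were 67.8 ± 11.0 and 107.5 ± 3.68 CPM, a log2 fold change of -0.67 (SE 0.12), and the ratio of the genotypes was 0.631.

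The 3 identity members were lower in MSR1 KO by similar amounts. Prrx1 (chromosome 1, 163245119 to 163313710, minus strand), a homeobox factor of limb and skull mesenchyme, was at 27.5, 33.2 and 27.6 CPM in MSR1 KO and at 50.9, 43.1 and 45.5 CPM in MSR1 WT, a log2 fold change of -0.66 (SE 0.11). Twist1 (chromosome 12, 33957671 to 33959829, plus strand), a helix-loop-helix factor of mesenchyme, was at 2.92, 3.89 and 3.23 CPM against 5.92, 4.47 and 5.08 CPM, a log2 fold change of -0.62 (SE 0.20). Cdh11 (chromosome 8, 102632095 to 102785642, minus strand) was at 40.7, 55.5 and 37.8 CPM against 80.9, 67.5 and 77.4 CPM, a log2 fold change of -0.75 (SE 0.15). Within MSR1 KO, replicate 2 was the highest of the 3 libraries for each of these genes, and within MSR1 WT, replicate 1 was the highest and replicate 2 the lowest. Cdh11 lies on the chromosome of Msr1, 63.0 Mb from it, and whether that bears on its level was not tested.

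Compared per kilobase of merged exons, which allows genes to be set beside each other, the members spanned from Ly6a at a mean of 98.4 CPM per kb over the 6 libraries to Nt5e at 0.244 CPM per kb. Between them came Cd44 (35.2), Eng (19.98), Alcam (12.3), Cdh11 (6.73), Mcam (4.42), Prrx1 (3.43), Twist1 (2.61) and Thy1 (1.51 CPM per kb). Nt5e and Thy1, required on the surface of BMSCs, were thus the lowest, and Nt5e was near Cd34 (0.321 CPM per kb). Ly6a was above Cd44, Cd44 above Eng, Eng above Alcam, Alcam above Cdh11, Prrx1 above Twist1 and Thy1 above Nt5e in 6 of 6 libraries. The other neighbours did not differ beyond their spread: Cdh11 was above Mcam in 5 of 6 libraries, and Mcam was above Prrx1 and Twist1 above Thy1 in 4 of 6. The order by mean differed between genotypes for 2 pairs of neighbours: Mcam was above Prrx1 in MSR1 KO and below it in MSR1 WT, and Thy1 was above Twist1 in MSR1 KO and below it in MSR1 WT. For scale, Csf1r, the receptor that macrophages need for survival, was at 774.7 CPM per kb, the collagen gene Col1a1 at 81.95 and the stromal receptor Pdgfrb at 5.57 CPM per kb.

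**Figure D2:**
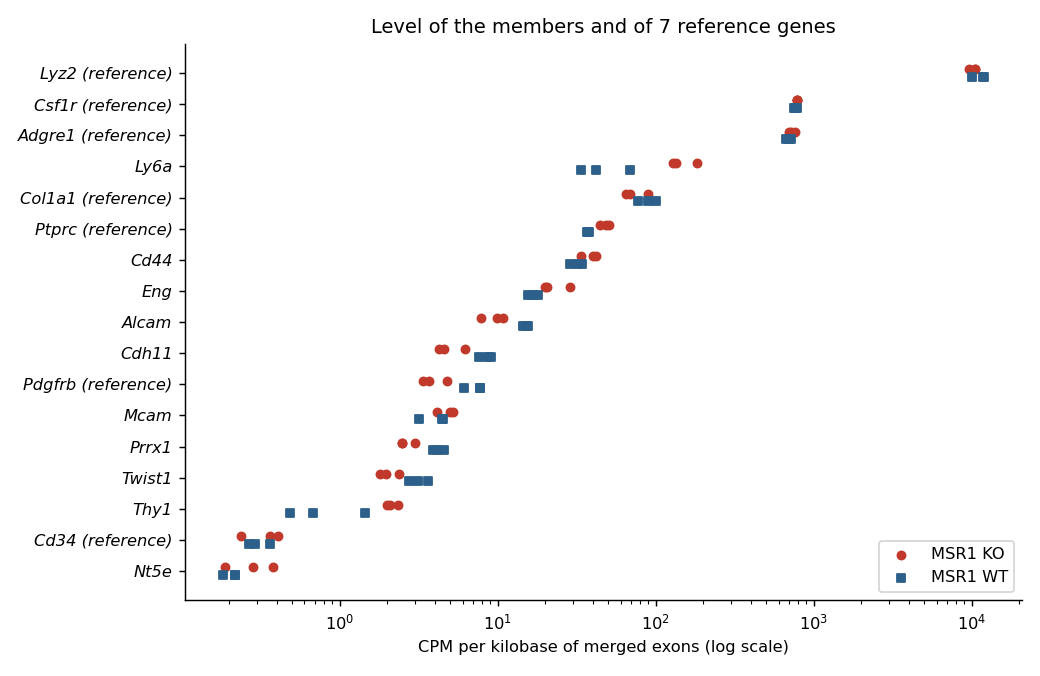
CPM per kilobase of merged exons (horizontal axis, log scale) of the 10 members and 7 reference genes in MSR1 KO (circles) and MSR1 WT (squares) libraries. Ly6a is the highest member and Nt5e the lowest, and the circles and squares of Ly6a and Thy1 stand farthest apart.

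To set the members against other stromal genes, 59 further genes were listed as stromal surface proteins, mesenchymal transcription factors and secreted stromal products. Of the 53 that were tested, 11 fell and 0 rose in edgeR, with a median log2 fold change of -0.43, 46 values below 0 and 7 above. At an unadjusted p under 0.05, 27 were lower and 0 higher, and DESeq2 called 21 lower and 0 higher. In 29 of the 53 the genotypes did not overlap with KO lower, and in 0 with KO higher. That most stromal genes were lower, and Thy1 higher, was part of the reason the members were chosen, so the contrast between them is a description. Prrx1, Twist1, Cdh11 and Alcam lay below 0, and Thy1, Ly6a, Eng, Nt5e, Cd44 and Mcam above it. The count of 11 fell to 1 when MSR1 KO replicate 1 was left out, to 3 for MSR1 KO replicate 3, to 0 for MSR1 WT replicate 1 and to 7 for MSR1 WT replicate 3.

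Among the stromal surface genes, 3 of 20 fell, namely the platelet-derived growth factor receptors Pdgfra (7.13 ± 1.11 against 16.2 ± 2.31 CPM, log2 fold change -1.19, SE 0.16, edgeR adjusted p = 0.014) and Pdgfrb (-0.87, SE 0.15, adjusted p = 0.025) and Tnfrsf11b, the RANKL decoy osteoprotegerin (-1.10, SE 0.14, adjusted p = 0.010). The integrins Itgb1, at 589.3 and 633.1 CPM, and Itgb5, at 430.4 and 413.2 CPM, were the most abundant of this list and did not pass the test. Among the transcription factors, 4 of 18 fell: Ebf3 (-1.67, adjusted p = 0.018), Foxc1 (-0.95, adjusted p = 0.037), Snai2 (-0.94, adjusted p = 0.027) and Tbx15 (-0.62, adjusted p = 0.039). Twist2, the paralog of Twist1, had few counts, 0.507 CPM over the 6 libraries, and a log2 fold change of -0.42 that did not pass (adjusted p = 0.82). Among the secreted products, 4 of 15 fell: the chemokine Cxcl12 (-1.11, adjusted p = 0.031), the microfibril protein Fbn1 (-0.84, adjusted p = 0.021), the cross-linking enzyme Loxl1 (-0.79, adjusted p = 0.026) and the proteoglycan Bgn (-0.76, adjusted p = 0.014). The most abundant products, Col1a2 (-0.39, adjusted p = 0.11) and Col1a1 (-0.26, adjusted p = 0.37), did not pass.

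The summed level of the 15 products was 1963, 2569 and 2029 CPM in MSR1 KO and 3394, 2696 and 3072 CPM in MSR1 WT. It had the same highest library in each genotype, and the same lowest library in MSR1 WT, as Prrx1, Twist1 and Cdh11. MSR1 WT replicate 2 was the lowest MSR1 WT library for 12 of the 15 products, and it was also the lowest for 14 of 16 interferon-response genes and 9 of 11 NK and innate lymphoid genes. Each member was therefore also set as a ratio to 1000 CPM of that sum, a measure chosen after the values were seen. Because the mean sum was 2187 CPM in MSR1 KO and 3054 CPM in MSR1 WT, a gene with the same CPM in every library would have a ratio of 1.4 between the genotypes. On this ratio Twist1 was at 1.53 ± 0.052 in MSR1 KO and 1.68 ± 0.051 in MSR1 WT, Prrx1 at 13.5 ± 0.533 and 15.3 ± 0.630, and Cdh11 at 20.3 ± 1.53 and 24.7 ± 0.740 (SD, n = 3 each). The ratio of the genotypes was 0.909, 0.885 and 0.823 for these 3, with each MSR1 KO library below the MSR1 WT libraries, and Alcam, at 0.895, overlapped between genotypes. The other members had higher ratios in each MSR1 KO library than in any MSR1 WT library, from 1.67-fold for Mcam, 1.71-fold for Cd44, 1.89-fold for Eng and 1.99-fold for Nt5e to 3.53-fold for Thy1 and 4.31-fold for Ly6a, to be read against 1.4. In CPM itself Nt5e, Cd44 and Mcam overlapped.

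**Figure D3:**
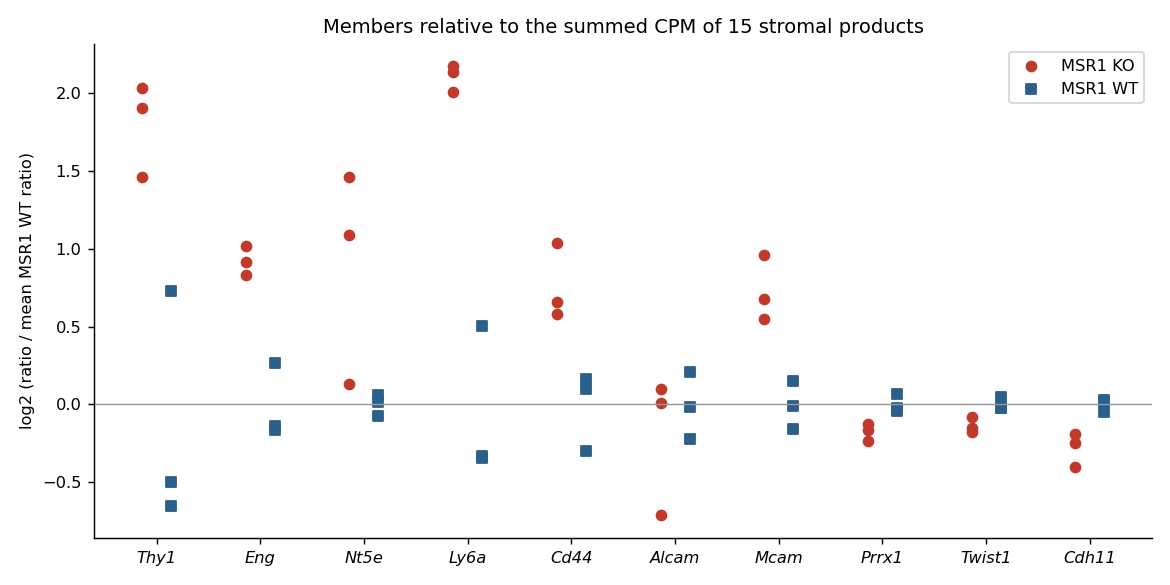
Ratio of each member's CPM to the summed CPM of 15 stromal products, as log2 relative to the MSR1 WT mean (vertical axis), in MSR1 KO (circles) and MSR1 WT (squares) libraries. The MSR1 KO libraries lie below the MSR1 WT libraries for Prrx1, Twist1 and Cdh11 (ratios of 0.885, 0.909 and 0.823), and Thy1 and Ly6a lie farthest above 0 in MSR1 KO, where a gene of unchanged CPM would have a ratio of 1.4.

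Genes that work with the members were listed by role. Of the Ly6 family of small surface proteins and its relatives, 8 of 14 were tested besides Ly6a and 3 rose: Ly6c2 (29.6 ± 4.85 against 11.2 ± 3.69 CPM, log2 fold change 1.40, SE 0.23, adjusted p = 0.020), Ly6i (1.39, SE 0.26, adjusted p = 0.027) and Ly6e (1540 ± 83.3 against 892.2 ± 172 CPM, 0.79, SE 0.13, adjusted p = 0.021). None of the family fell (0 at an unadjusted p under 0.05 and 0 by DESeq2), and the median was 0.99. These genes resemble each other in sequence, so reads may have been split among them, and single values in the family are uncertain. Of the receptors, ligands and targets of the endoglin pathway, 1 of 14 tested fell, the ligand Tgfb3 (35.7 ± 1.48 against 51.7 ± 5.11 CPM, -0.54, adjusted p = 0.025), and 0 rose in edgeR, at an unadjusted p under 0.05 or by DESeq2. Tgfbr2 and Tgfb1, the most abundant, were at log2 fold changes of -0.10 and 0.00, and the target Smad6 at -0.57 did not pass (adjusted p = 0.13).

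Of the adenosine pathway that Nt5e belongs to, 1 of 12 tested rose, the peptidase Dpp4 that binds adenosine deaminase (9.33 ± 0.975 against 3.02 ± 1.15 CPM, 1.63, SE 0.28, adjusted p = 0.024), and 0 fell (2 at an unadjusted p under 0.05, and 0 by DESeq2). Entpd1, the ectonucleotidase CD39 that supplies AMP to Nt5e, was at 247.2 and 262.4 CPM, a log2 fold change of -0.09 that did not pass (adjusted p = 0.81). Of the hyaluronan system of Cd44, 2 of 11 fell, the Cd44 ligand Spp1 (645.6 ± 16.9 against 1115 ± 119 CPM, -0.79, adjusted p = 0.0065) and the scavenger receptor Stab1 (-0.56, adjusted p = 0.025). None rose in edgeR. At an unadjusted p under 0.05, 1 was higher and 4 were lower, and DESeq2 called 4 lower and 0 higher. Of the other binding partners of the surface members, 1 of 12 fell, the integrin subunit Itgax (19.6 ± 5.03 against 111.1 ± 33.1 CPM, -2.50, SE 0.25, adjusted p = 0.0045). At an unadjusted p under 0.05, 1 was higher and 4 were lower, and DESeq2 called 3 lower and 0 higher. The Cd44 anchor Msn, the most abundant with Lgals3, was at 0.12 (adjusted p = 0.43).

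Of the cadherins and catenins beside Cdh11, 8 of 14 were tested and edgeR called 0 in either direction. At an unadjusted p under 0.05, 1 was higher and 4 were lower, and DESeq2 called 2 lower. N-cadherin (Cdh2) was at 16.6 ± 1.47 and 23.2 ± 3.23 CPM, without overlap (log2 fold change -0.48, adjusted p = 0.078), and β-catenin (Ctnnb1), which binds the tail of Cdh11, was at 225.1 and 244.3 CPM (-0.12, adjusted p = 0.69). Of the helix-loop-helix partners of Twist1, 5 of 6 were tested and edgeR and DESeq2 called 0, with 1 lower at an unadjusted p under 0.05. Tcf4 and Tcf12 were the most abundant, at log2 fold changes of 0.09 (adjusted p = 0.73) and -0.27 (adjusted p = 0.51).

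**Figure D4:**
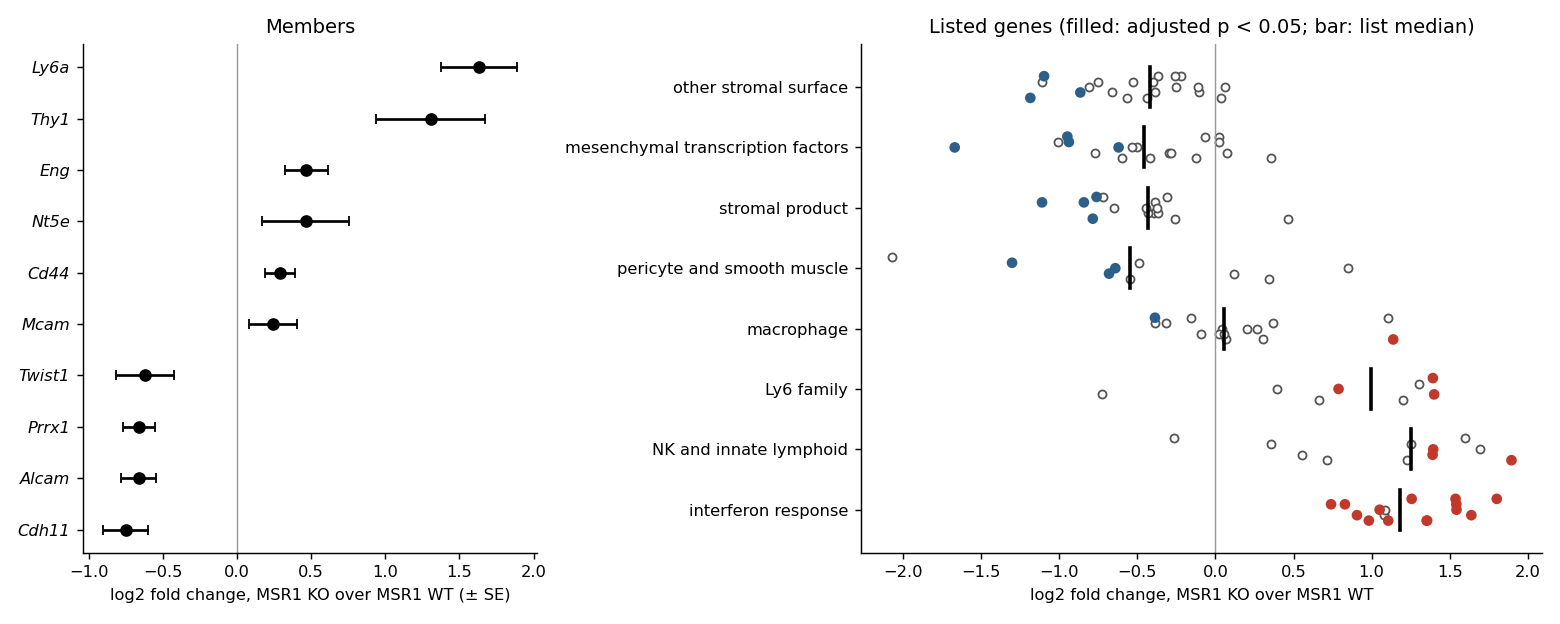
Log2 fold change of MSR1 KO over MSR1 WT (horizontal axes) for the 10 members with their SE (left) and for the tested genes of 8 lists (right), where filled points passed an adjusted p of 0.05 and bars mark list medians. The 3 stromal lists have medians of -0.42, -0.46 and -0.43, and the interferon response list has a median of 1.18.

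Markers of other cell types were set beside several members, and their lists went in both directions. Beside Thy1, 3 of 11 tested NK and innate lymphoid genes rose, the cytotoxic protease Gzmb (28.3 ± 4.95 against 7.61 ± 3.52 CPM, log2 fold change 1.89, SE 0.31, adjusted p = 0.020), the transcription factor Tbx21 (1.39, SE 0.31, adjusted p = 0.042) and the receptor Klrb1c, or NK1.1 (1.39, SE 0.26, adjusted p = 0.028), and 0 fell (1 at an unadjusted p under 0.05, and 0 by DESeq2). The count of 3 became 0 with MSR1 KO replicate 1, MSR1 KO replicate 3 or MSR1 WT replicate 1 left out, and 1 with replicate 2 of either genotype left out. The list of 12 summed to 84.5 to 98.9 CPM in MSR1 KO and to 43.1 to 65.7 CPM in MSR1 WT. Its sum was highest in replicate 3 of each genotype, as was Thy1. Its sum and Thy1 were both lowest in replicate 2 within MSR1 WT, but within MSR1 KO the sum and 7 of its 11 tested genes were lowest in replicate 1 and Thy1 in replicate 2. Ncr1, which defines NK cells, was at 172, 237 and 284 counts in MSR1 KO and at 129, 74 and 232 counts in MSR1 WT, and the groups overlapped. Prf1 was at 0 counts in MSR1 KO replicate 3 and MSR1 WT replicate 3, and 0 of the 12 genes were at 0 in every library.

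Of the T cell list, 11 of 16 were tested, 1 rose, the receptor constant region Trbc2 (1.85, SE 0.38, adjusted p = 0.034), and 0 fell (2 at an unadjusted p under 0.05, and 0 by DESeq2). The list summed to 272.6 to 374.5 CPM in MSR1 KO and 343.1 to 403.4 CPM in MSR1 WT, mostly from Cd4, Il7r and Cd28. The CD3 chains that define T cells had few counts: Cd3d had 5, 0 and 19 counts in MSR1 KO and 0, 0 and 15 in MSR1 WT, Cd3e had 0, 0 and 9 against 0, 4 and 8, and Cd3g had 8, 6 and 24 against 8, 12 and 29. A count of 0 allows a level of up to 3 counts, or 0.063 to 0.083 CPM over these libraries. Lck, a kinase of T and NK cells, was at 6.31 ± 1.69 and 2.32 ± 1.49 CPM without overlap (1.45, SE 0.43, adjusted p = 0.11). The part of these cell types in the level of Thy1 was not tested.

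Beside Ly6a, 14 of 16 interferon-response genes rose in edgeR and 0 fell (0 at an unadjusted p under 0.05, and 0 by DESeq2), with a median log2 fold change of 1.18. In 16 of 16 the genotypes did not overlap. Examples are Ifi44 (156.1 ± 22.7 against 44.8 ± 20.1 CPM, 1.80, SE 0.29, adjusted p = 0.019) and the antiviral synthetase Oas2 (1.05, SE 0.08, adjusted p = 0.0026). Ifit1 (1.08, adjusted p = 0.052) and Usp18 (1.08, adjusted p = 0.063) did not pass. The list summed to 3851, 4222 and 3356 CPM in MSR1 KO and to 1405, 1224 and 2074 CPM in MSR1 WT, and within each genotype its highest, middle and lowest library were those of Ly6a. In MSR1 WT, 16 of 16 genes were highest in replicate 3. With MSR1 KO replicate 1, 2 or 3 left out the count of 14 became 2, 5 and 6, and with MSR1 WT replicate 1 or 2 left out it became 2 and 6. The part of the interferon response in the level of Ly6a was not tested.

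**Figure D5:**
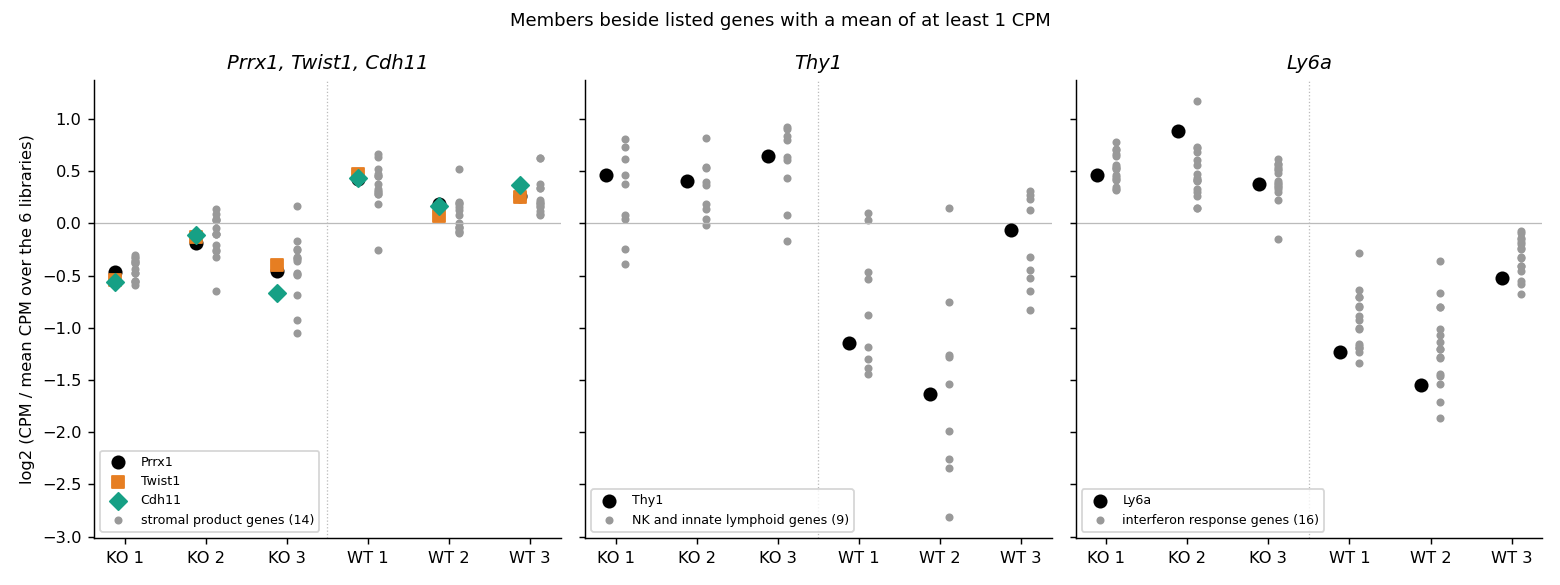
Log2 of CPM over the mean of the 6 libraries (vertical axis) in each library (horizontal axis) for members (large symbols) and listed genes with a mean of at least 1 CPM (grey points). Prrx1, Twist1 and Cdh11 are shown with stromal products, Thy1 with NK and innate lymphoid genes, and Ly6a with interferon-response genes.

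Beside Eng and Mcam, 1 of 12 tested endothelial genes rose, the junction protein Pecam1 (54.1 ± 6.88 against 32.9 ± 4.89 CPM, 0.72, SE 0.14, adjusted p = 0.027), and 0 fell in edgeR, with 1 lower at an unadjusted p under 0.05 and by DESeq2. The list summed to 126.8 to 150.9 CPM in MSR1 KO and 85.3 to 125.0 CPM in MSR1 WT. Cdh5, which defines endothelium, was at 32.4 ± 4.40 and 25.1 ± 6.52 CPM and overlapped (0.37, adjusted p = 0.34), and Vwf was at 3.18 ± 1.00 and 8.11 ± 2.83 CPM (-1.36, adjusted p = 0.051). Of the pericyte and smooth muscle list, 6 of 9 tested genes had log2 fold changes below 0 and 3 above. Of these, 3 fell, the receptor Notch3 (2.93 ± 0.062 against 7.24 ± 1.32 CPM, -1.30, adjusted p = 0.016), smooth muscle actin Acta2 (503.3 ± 61.1 against 807.2 ± 110 CPM, -0.68, adjusted p = 0.024) and Tagln (-0.64, adjusted p = 0.019), and 0 rose in edgeR, at an unadjusted p under 0.05 or by DESeq2. The pericyte markers Abcc9 (0.85, adjusted p = 0.33), Rgs5 (0.34, adjusted p = 0.90) and Kcnj8 (0.12, adjusted p = 0.95) were above 0 and did not pass. The list summed to 613.4 to 752.7 CPM in MSR1 KO and 974.4 to 1233 CPM in MSR1 WT. Their part in the levels of Eng, Mcam, Prrx1, Twist1 and Cdh11 was not tested.

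Of the macrophage list, the Fc receptor Fcgr1 rose (562.7 ± 48.8 against 255.7 ± 68.9 CPM, 1.14, SE 0.17, adjusted p = 0.018) and the mannose receptor Mrc1 fell (1480 ± 98.4 against 1936 ± 157 CPM, -0.39, SE 0.08, adjusted p = 0.037). Adgre1, Csf1r and Lyz2 were at log2 fold changes of 0.07, 0.04 and -0.15 and did not pass, and the list summed to 29200 to 30700 CPM in MSR1 KO and 29440 to 31940 CPM in MSR1 WT. Cd44, which macrophages carry, differed by 1.22-fold. The part of macrophages in the level of Cd44 was not tested.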

How the data were processed

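RNA-seq of 3 MSR1 KO and 3 MSR1 WT macrophage libraries was analysed. The authors deposited raw counts per gene and library, and beside them a signal value, the count over the authors' size factor, which no test here used. The study's methods name TopHat and FPKM values, whereas the submitters' processing notes name fastp 0.17.1, HISAT2 2.1.0, DESeq2 1.18.1 and R 3.4.3. The counting program, strand setting and genome build are not given in the sources used here. The gene starts and ends of the 10 members equal those of GENCODE M21 on GRCm38, which gave the exon lengths. Columns of the authors' own fold changes and p-values were not used, and 0 value columns lacked a sample. Of 27 gene symbols that had been turned into dates, 26 were restored from the gene identifiers, and where identifiers shared a symbol (89 symbols) it was given to the identifier with most counts.

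After filterByExpr and TMM scaling, edgeR 4.0.16 (R 4.3.3) gave the quasi-likelihood test (glmQLFit, glmQLFTest), with Benjamini-Hochberg adjustment over the 16402 genes tested. The SE was derived from the log2 fold change and the F statistic. The script was tested on simulated data drawn from these libraries. Alternatives were DESeq2 1.42.0, its size factors, library size alone, 2 other filters, a replicate block and each library left out. Intervals and floors from counts cover counting error only. The members and lists were chosen with earlier results of these data known. Named genes were the members, Msr1, listed genes that passed the test, the 4 of each list with the largest change at 1 CPM or more and the 2 most abundant, of which the text gives a part, and markers that define a cell type.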

Additional observations from a re-analysis of the deposited data

How the results depend on the processing

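The log2 fold changes of the 10 members kept their sign in 12 of 12 alternatives. Of the 120 values, 119 stayed within 1 SD of the spread between replicates, the exception being Thy1 without MSR1 WT replicate 3. The alternatives reused all or most of the same libraries, which can hardly move a mean by that much. The count of 119 is therefore not read as robustness. Over the alternatives Thy1 ran from 1.01 to 1.88, Ly6a from 1.43 to 1.98 and Eng from 0.28 to 0.57. Nt5e ran from 0.20 to 0.68, Cd44 from 0.23 to 0.39 and Mcam from 0.09 to 0.34. Cdh11 ran from -0.94 to -0.64, Alcam from -0.77 to -0.54, Prrx1 from -0.76 to -0.59 and Twist1 from -0.74 to -0.51. Nt5e was lowest without MSR1 KO replicate 3, and Mcam without MSR1 WT replicate 2. The calls depended on the setting. DESeq2 called 3 members higher, 720 genes higher and 848 lower in place of 369 and 436, 21 genes of the 3 stromal lists lower and 5 NK and innate lymphoid genes higher. Without the filter on low counts, 237 genes were called higher and 288 lower. With each library left out in turn, 0 to 2 members were called higher and 0 to 3 lower, 18 to 407 genes higher and 53 to 372 lower, 0 to 13 stromal genes lower, 2 to 16 interferon-response genes higher and 0 to 4 NK and innate lymphoid genes higher. The fewest genes were called without MSR1 WT replicate 1 (18 higher and 53 lower), and the cause was not tested. With the replicate block, 0 members were called higher and 0 lower, 59 genes higher and 78 lower, 1 stromal gene lower and 4 interferon-response genes higher. The labels share only the numbers 1 to 3: same-numbered libraries had correlations of -0.026, 0.019 and -0.005 of their deviations from the group means, and not every library correlated best with its own number. Using the longest transcript in place of merged exons kept 8 of 10 members at their place in the order of levels. Nt5e had 65 to 151 counts per library, and depth limits what can be said of genes at 0, for which up to 3 counts are allowed. Groups of 3 libraries are too small for a search for single outlying values.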

Other observations

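Markers of further cell types, which were set beside no member, are given as values. Of the B cell list, 3 of 7 were tested and 2 fell, the transcription factor Ebf1 (4.81 ± 0.592 against 10.1 ± 1.20 CPM, log2 fold change -1.07, edgeR adjusted p = 0.018) and the adaptor Blnk (52.6 ± 10.5 against 82.98 ± 4.40 CPM, -0.66, adjusted p = 0.040). Of the neutrophil list, 10 of 10 were tested and edgeR called 0, with 3 higher at an unadjusted p under 0.05 and 2 by DESeq2, and the list summed to 664.3 to 1081 CPM in MSR1 KO and 430.8 to 818.7 CPM in MSR1 WT. Of the adipocyte and chondrocyte list, 6 of 10 were tested and 1 fell, the cartilage collagen Col2a1 (3.88 ± 0.038 against 8.35 ± 1.62 CPM, -1.10, adjusted p = 0.021).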
